A study of Mus musculus with 28 samples.

Results

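Complex I of the respiratory chain has 7 subunits whose genes lie in mitochondrial DNA, mt-Nd1, mt-Nd2, mt-Nd3, mt-Nd4, mt-Nd4l, mt-Nd5 and mt-Nd6, and their RNA was followed here in the frontal cortex of mice under social or metabolic stress. The genes were found by symbol, and 7 of 7 were listed and passed the filter on low counts in both count tables, which hold 15097 and 15054 genes (14888 in both). The study sequenced total RNA from male C57Bl/6 mice, 1 library per mouse, in 4 groups. The CSS group (chronic social stress, 8 mice) was kept in social isolation for 7 weeks and faced 2 confrontations a day over the last 20 days, and the CSS_control group (8 mice) was kept under control conditions; all 16 were 21 weeks old. The T2D group (induced type 2 diabetes, 6 mice) received 75 mg/kg streptozotocin, which damages insulin-producing cells, and ate for 21 weeks a high-fat chow, fat giving 43.2% of its energy, and the T2D_control group (6 mice) was kept under control conditions; these 12 were 30 or 31 weeks old. The diabetes model is a chemical and dietary one with no genetic change, and the labels give no allele or transgene in any group. Tissue stored in RNAlater was extracted on a Maxwell RSC instrument, Ribo-Zero Gold removed ribosomal RNA, and the libraries are stranded (TruSeq Stranded Total RNA).

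Complex I oxidises NADH, passes the electrons to ubiquinone and pumps protons across the inner mitochondrial membrane, and neurons rely heavily on respiration for their ATP. All 7 mitochondrially encoded subunits sit in its membrane arm. Nd2, Nd4 and Nd5 are the antiporter-like proton-pumping subunits, Nd1 forms much of the ubiquinone channel, and Nd3, Nd4l and Nd6 lie between the channel and the pumps. Mitochondrial DNA is copied into long transcripts from both strands, which are cut mainly at the tRNAs between the genes, so neighbouring messages begin as parts of the same molecule. Of the 7 genes, 6 are read from the heavy strand and lie on the + strand of the annotation. mt-Nd6 is the exception: it is read from the light strand, lies on the - strand, and is the sole protein message of its long transcript.

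The strands meet at the end of mt-Nd5 and mt-Nd6, whose annotated ends share 14 bases on opposite strands at MT:13552-13565 (GRCm38, GENCODE M21; 2.7% of mt-Nd6). Long transcripts come from both strands, so a count made without regard to strand could mix them over the whole of mt-Nd6. The strand setting of these counts is not given, and its effect on mt-Nd6 was not tested. The last 60 bases of each transcript are shown, 5′ to 3′, with the shared bases in capitals.
mt-Nd5 end: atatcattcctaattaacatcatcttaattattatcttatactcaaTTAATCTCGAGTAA
mt-Nd6 end: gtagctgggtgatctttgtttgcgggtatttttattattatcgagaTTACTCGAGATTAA
The sequence of the light-strand message differs in composition from the others. Guanine made up 28.1% and cytosine 6.0% of mt-Nd6, against 8.0% to 11.6% guanine and 22.1% to 30.0% cytosine in the 6 heavy-strand messages. The first 60 bases of each neighbour, with guanine in capitals, hold 12 guanines in mt-Nd6 and 0 in mt-Nd5.
mt-Nd6 start: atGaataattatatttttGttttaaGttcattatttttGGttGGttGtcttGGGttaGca
mt-Nd5 start: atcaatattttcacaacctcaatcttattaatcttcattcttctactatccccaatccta
The 3 members mt-Nd3, mt-Nd4l and mt-Nd4 also resemble a stretch of mitochondrial sequence inserted in chromosome 1. The pseudogene Gm28438 (chr1:24612775-24613119, - strand) matches mt-Nd3 over 345 bases with 99.71% identity and 1 substitution, T3C, counted from base 1 of mt-Nd3. The first 32 bases of both are shown with the differing base in capitals.
mt-Nd3: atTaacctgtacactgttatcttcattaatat
Gm28438: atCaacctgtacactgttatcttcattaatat
The pseudogene Gm10222 (chr1:24612407-24612700, - strand) matches mt-Nd4l over 294 bases with 0 differences. Reads from these stretches carry little or nothing that tells gene from copy, so the listed counts of mt-Nd3 and mt-Nd4l are uncertain, and sums with the copy are given beside them. The copy of mt-Nd4, Gm28439, is identical over 876 bases (63.6% of mt-Nd4); it, a copy of mt-Nd2 at 96.7% identity and a copy of mt-Nd5 at 95.2% identity are in neither table and were not analysed here. mt-Nd1 and mt-Nd6 had no match of at least 95% identity over 100 bases. mt-Nd4l and mt-Nd4 share 7 bases on the same strand at MT:10167-10173, where the stop of the mt-Nd4l message runs into the start of the other, as the ends show in capitals.
mt-Nd4l end: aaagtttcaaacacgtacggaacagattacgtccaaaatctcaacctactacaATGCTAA
mt-Nd4 start: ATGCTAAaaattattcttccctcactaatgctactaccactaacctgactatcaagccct

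Library totals, in units of 1000000 estimated counts, ran from 15.2 to 21.9 in CSS and from 14.3 to 37.5 in CSS_control, and from 14.3 to 22.7 in T2D and from 12.1 to 21.6 in T2D_control. The raw counts of the rarest members were 78 to 1078 for mt-Nd4l and 216 to 2672 for mt-Nd6. The 15 genes of mitochondrial DNA in the tables took 6.84 ± 0.91% of all counts in CSS, 7.62 ± 0.64% in CSS_control, 6.90 ± 1.23% in T2D and 6.13 ± 0.76% in T2D_control (SD). The 7 members took 0.422 ± 0.045% in CSS, 0.531 ± 0.057% in CSS_control, 0.412 ± 0.067% in T2D and 0.414 ± 0.065% in T2D_control. Most of the rest came from mt-Rnr2 and mt-Co1. The ribosomal RNA genes mt-Rnr1 and mt-Rnr2 together took 4.33% in CSS, 4.75% in CSS_control, 4.61% in T2D and 3.87% in T2D_control. The share of the 15 genes may therefore also reflect how fully ribosomal RNA was removed, which was not tested. The RNA integrity number averaged 9.62 ± 0.34 in CSS, 9.53 ± 0.23 in CSS_control, 9.05 ± 0.23 in T2D and 9.37 ± 0.51 in T2D_control. Cortical identity was checked with 8 excitatory neuron markers, all of which were listed, with summed levels of 1096 to 2178 CPM (counts per 1000000 listed counts) in every library; 5 markers of striatal projection neurons were also present, at 129 to 1009 CPM.

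Within a group the listed levels of the 7 genes differed widely. Per kilobase of annotated length, mt-Nd1 and mt-Nd3 were highest, followed by mt-Nd4, mt-Nd2 and mt-Nd5, and mt-Nd4l and mt-Nd6 were lowest. In CSS the order was mt-Nd1 at 2095 ± 234, mt-Nd3 at 1802 ± 214.4, mt-Nd4 at 600.2 ± 104, mt-Nd2 at 380.6 ± 75.1, mt-Nd5 at 174 ± 31.9, mt-Nd4l at 77.3 ± 23.7 and mt-Nd6 at 59.1 ± 16.3 CPM per kilobase (SD, n = 8). In CSS_control it was mt-Nd1 at 2800 ± 418, mt-Nd3 at 1355 ± 566, mt-Nd4 at 825.7 ± 121, mt-Nd2 at 499.7 ± 78.3, mt-Nd5 at 231.5 ± 39.3, mt-Nd6 at 108.8 ± 17.8 and mt-Nd4l at 79.3 ± 42.7 CPM per kilobase (SD, n = 8). The step between mt-Nd4l and mt-Nd6 was smaller than the SD of mt-Nd4l in both groups. The position of mt-Nd3 and mt-Nd4l in this order depends on how reads were divided with their copies. mt-Nd4l and mt-Nd4 also overlap by 7 bases, so their listed levels need not stand for separate molecules.

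In T2D the levels were mt-Nd3 at 1950 ± 491, mt-Nd1 at 1891 ± 282, mt-Nd4 at 595.6 ± 100.3, mt-Nd2 at 405.4 ± 64.8, mt-Nd5 at 193.5 ± 31.9, mt-Nd4l at 72.0 ± 58.1 and mt-Nd6 at 31.7 ± 3.66 CPM per kilobase (SD, n = 6). In T2D_control the order was the same, with mt-Nd3 at 2074 ± 190, mt-Nd1 at 1922 ± 348 and mt-Nd6 at 34.3 ± 6.95 CPM per kilobase (SD, n = 6). mt-Nd3 and mt-Nd1 lay within each other's spread in both groups. The step between mt-Nd4l and mt-Nd6 in T2D was smaller than the SD of mt-Nd4l but not that of mt-Nd6; in T2D_control mt-Nd4l was at 88.8 ± 51.9 CPM per kilobase. mt-Nd1 alone held 47.5% of the members' counts in CSS, 50.5% in CSS_control, 43.9% in T2D and 44.4% in T2D_control, and mt-Nd6 held 0.726% in CSS, 1.06% in CSS_control, 0.399% in T2D and 0.430% in T2D_control. Taking 200 bases off each length, as an approximation of where a fragment can start, put mt-Nd3 above mt-Nd1 in CSS, mt-Nd4l above mt-Nd5 in CSS, T2D and T2D_control, and mt-Nd4l above mt-Nd6 in CSS_control, so that mt-Nd6 was then lowest in all 4 groups.

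**Figure D1:**
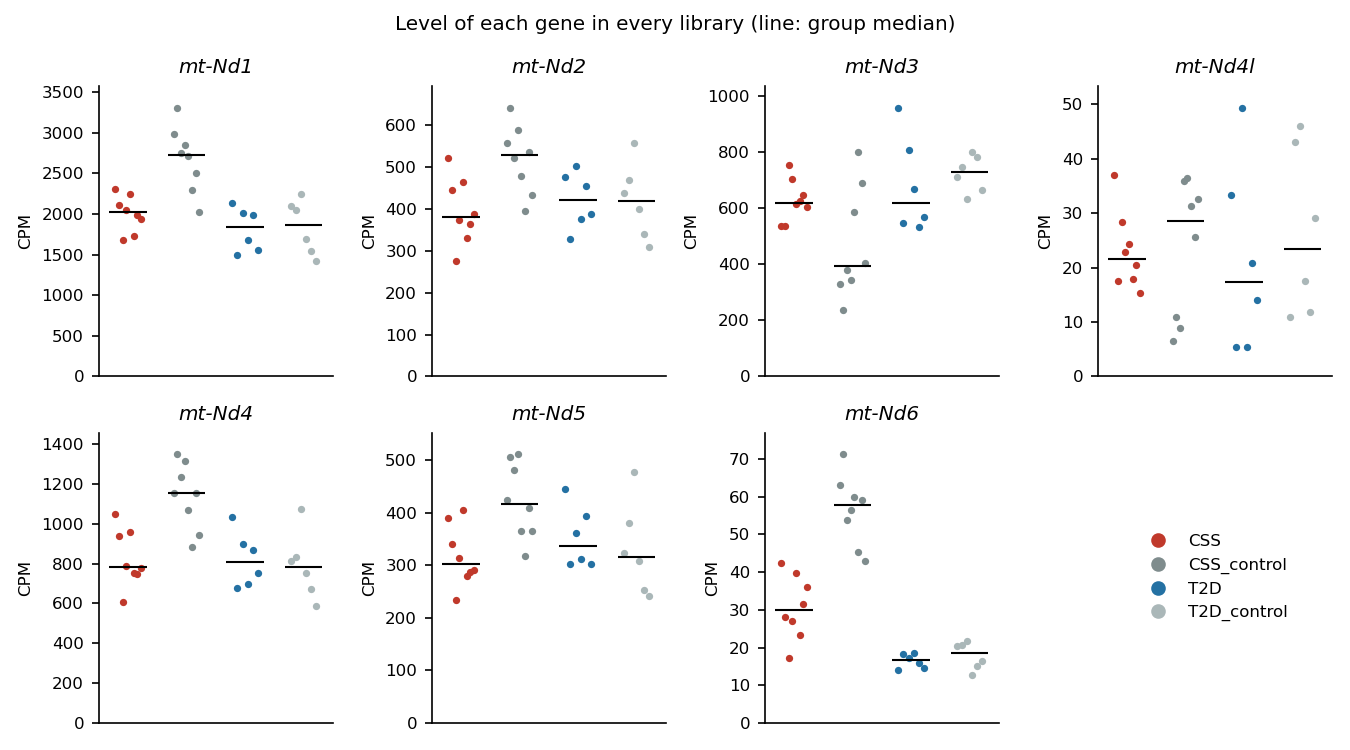
Level of each member in CPM (vertical axis, linear, starting at 0) in every library of the 4 groups; each point is 1 mouse and the line is the group median. For mt-Nd6 the 8 CSS libraries, at 17.3 to 42.3 CPM, lie below the 8 CSS_control libraries, at 42.9 to 71.3 CPM.

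The comparison of CSS with CSS_control asks how social stress changes cortical RNA. Here 3 of the 7 subunit messages fell, mt-Nd6 the most, and 0 rose; 4.52% of all genes in the table passed the same test (318 higher and 365 lower), and 2.11% passed as higher and 2.42% as lower. These calls depend on which controls are used: 0 of 7 passed against the 4 controls whose titles carry the codes C2 and C3, or with the number in that title code as a factor. mt-Nd6 had the largest change among the members that passed. Its level was 17.3, 29.8 and 42.3 CPM in CSS (lowest, median and highest), against 42.9, 57.8 and 71.3 CPM in CSS_control. All 8 stressed mice lay below all 8 controls, a separation that 0.603% of all genes showed in either direction. The mean was 30.7 ± 8.44 CPM in CSS and 56.5 ± 9.23 CPM in CSS_control (SD, n = 8 each), which is 0.543 times the control level, and the fitted log2 change was -0.89 ± 0.16 (SE, adjusted p = 0.0097, edgeR's quasi-likelihood test with Benjamini-Hochberg adjustment over all genes), rank 44 by p. In these samples of whole tissue, fewer cells of a type and less RNA per cell cannot be told apart.

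Among the heavy-strand messages, mt-Nd1 and mt-Nd4 fell. mt-Nd1, of the ubiquinone channel, was at 1681, 2019 and 2307 CPM in CSS and at 2030, 2732 and 3310 CPM in CSS_control (lowest, median and highest); the groups overlapped, but all 8 stressed mice lay below the control mean. Its log2 change was -0.42 ± 0.095 (adjusted p = 0.0202, edgeR). mt-Nd4, a proton-pumping subunit, was at 605.7, 783.6 and 1048 CPM in CSS and at 882.7, 1155 and 1350 CPM in CSS_control, again with overlap and with 8 of 8 stressed mice below the control mean. Its log2 change was -0.46 ± 0.11 (adjusted p = 0.0284, edgeR). This call ended when CSS replicate 6 or CSS_control replicate 1, 2, 3 or 4 was left out (adjusted p = 0.0645, 0.0563, 0.0609, 0.0502 and 0.0509, edgeR), while mt-Nd6 and mt-Nd1 passed with each of the 16 libraries left out in turn.

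The other pumping subunits had similar estimates that missed the threshold. mt-Nd5 was at 233, 302.1 and 405.1 CPM in CSS and at 317.3, 416.9 and 511.4 CPM in CSS_control, with 8 of 8 stressed mice below the control mean. Its log2 change was -0.42 ± 0.12 (adjusted p = 0.0575, edgeR), and it passed without CSS replicate 1 (0.0377), CSS replicate 5 (0.0413) or CSS_control replicate 6 (0.0285). mt-Nd2 was at 276.5, 379.9 and 520.2 CPM in CSS and at 393.7, 528.9 and 641.5 CPM in CSS_control, with 7 of 8 stressed mice below the control mean. Its log2 change was -0.40 ± 0.13 (adjusted p = 0.0771, edgeR), and it passed without CSS replicate 1 (0.0343) or CSS_control replicate 6 (0.0421). DESeq2 called 5 of the 7 members, adding mt-Nd2 and mt-Nd5 to the 3 above (adjusted p = 0.0245 and 0.0143), in a fit that called 1280 of 14511 genes in all, where edgeR called 683 of 15097.

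mt-Nd3 and mt-Nd4l stood apart from the rest. mt-Nd3 was at 535.5, 618.5 and 752 CPM in CSS, against 238.3, 391.8 and 800.2 CPM in CSS_control, so the controls spanned the whole range of the stressed mice. All 8 stressed mice lay above the control mean, but the log2 change of 0.41 ± 0.20 did not pass (adjusted p = 0.249, edgeR). mt-Nd4l was at 15.3, 21.6 and 37.0 CPM in CSS and at 6.60, 28.5 and 36.5 CPM in CSS_control, where 3 controls were at 10.9 CPM or less, and its log2 change of -0.027 ± 0.34 did not pass (adjusted p = 0.973, edgeR). These are the members whose sequence is almost wholly shared with a listed copy.

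**Figure D2:**
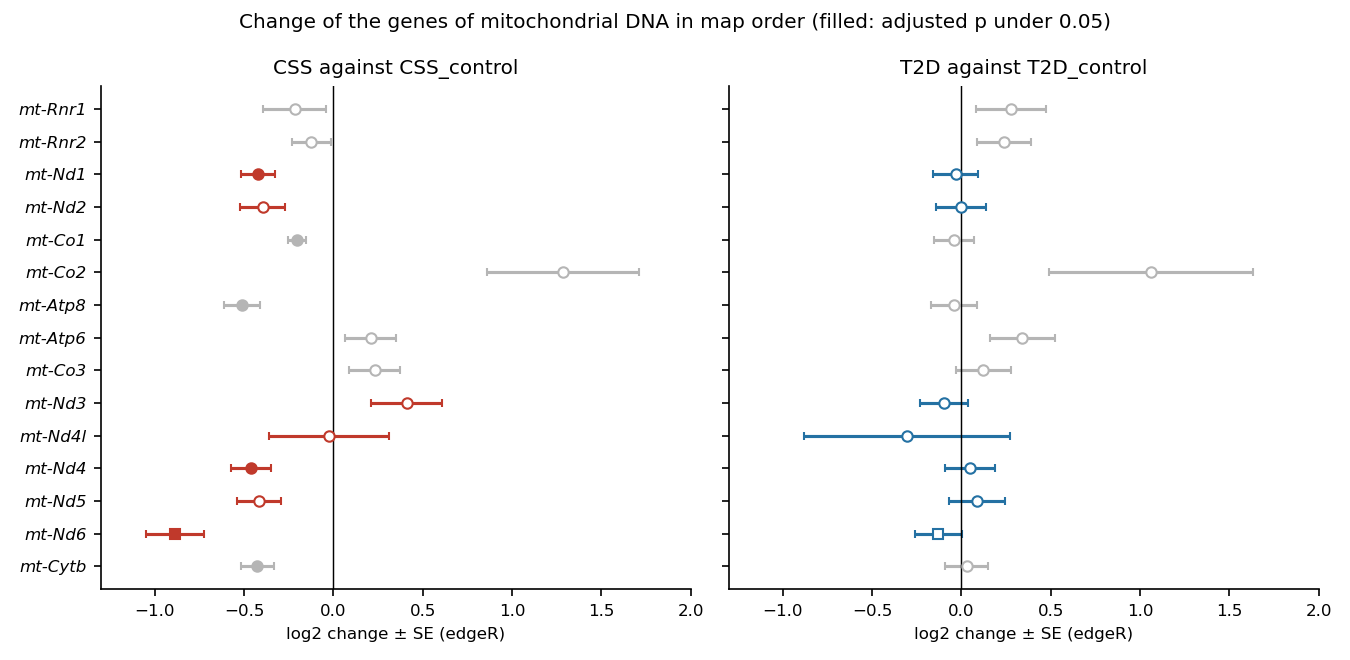
Fitted log2 change ± SE (horizontal axis) of the 15 genes of mitochondrial DNA in map order, for CSS against CSS_control and T2D against T2D_control; coloured symbols are the 7 complex I members, the square is the light-strand gene mt-Nd6, grey symbols are other genes, and filled symbols passed an adjusted p of 0.05. In CSS mt-Nd6 lies farthest to the left at -0.89, and in T2D 0 of the 7 members passed.

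Ratios of counts within a library compare the strands without any scaling between libraries. The 21 ratios between members were tested in both cohorts with two-sided exact permutation tests, and p was adjusted over the 42 tests. mt-Nd6 was lower relative to 5 of the 6 heavy-strand members in CSS. These ratios all share the counts of mt-Nd6, so they are not independent observations. The log2 ratio of mt-Nd6 to its neighbour mt-Nd5 was -3.75, -3.45 and -3.01 in CSS (lowest, median and highest), against -3.18, -2.81 and -2.61 in CSS_control. All 8 stressed mice lay below the control mean, with some overlap at the edges. The means were -3.40 ± 0.26 in CSS and -2.90 ± 0.21 in CSS_control (SD, n = 8 each), a difference of -0.50 (exact permutation p = 0.00171, adjusted 0.0144).

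Relative to mt-Nd1 the log2 ratio of mt-Nd6 was -6.60 to -5.74 in CSS and -5.68 to -5.41 in CSS_control, and relative to mt-Nd2 it was -3.999 to -3.42 in CSS and -3.38 to -2.999 in CSS_control. The groups did not overlap in either ratio. The differences were -0.50 for mt-Nd1 and -0.51 for mt-Nd2, each with an exact permutation p of 0.000155, the smallest that 8 against 8 can give, and adjusted p = 0.00326. The ratio to mt-Nd4 differed by -0.45 (exact p = 0.00124, adjusted 0.0131) and that to mt-Nd3 by -1.43 (exact p = 0.000777, adjusted 0.0109). The ratio to mt-Nd4l differed by -1.09 and did not pass after adjustment (exact p = 0.0333, adjusted 0.140).

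Ratios among the heavy-strand members other than mt-Nd3 and mt-Nd4l differed less between the groups. Between CSS and CSS_control the log2 ratio of mt-Nd5 to mt-Nd1 differed by -0.0023, that of mt-Nd5 to mt-Nd2 by -0.012, that of mt-Nd2 to mt-Nd1 by 0.0099 and that of mt-Nd5 to mt-Nd4 by 0.051, all smaller than the SD within either group. The ratio of mt-Nd4 to mt-Nd1 differed by -0.053, and that of mt-Nd4 to mt-Nd2 by -0.063, about the size of the SD within either group (0.063 in CSS and 0.061 in CSS_control), with 7 of 8 stressed mice below the control mean. None of the 6 ratios among mt-Nd1, mt-Nd2, mt-Nd4 and mt-Nd5 passed (adjusted p = 0.236 to 0.973, exact permutation tests). Summed over the 6 heavy-strand genes, there were 111 to 207 counts per mt-Nd6 count in CSS, median 142, against 85.0 to 104 in CSS_control, median 94.2, with no overlap. Relative to mt-Nd3, the ratio of mt-Nd4 was lower by 0.98 (adjusted p = 0.0476, exact permutation test), and the ratio of mt-Nd3 to mt-Nd1 was higher by 0.92 (adjusted p = 0.0413, exact permutation test).

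**Figure D3:**
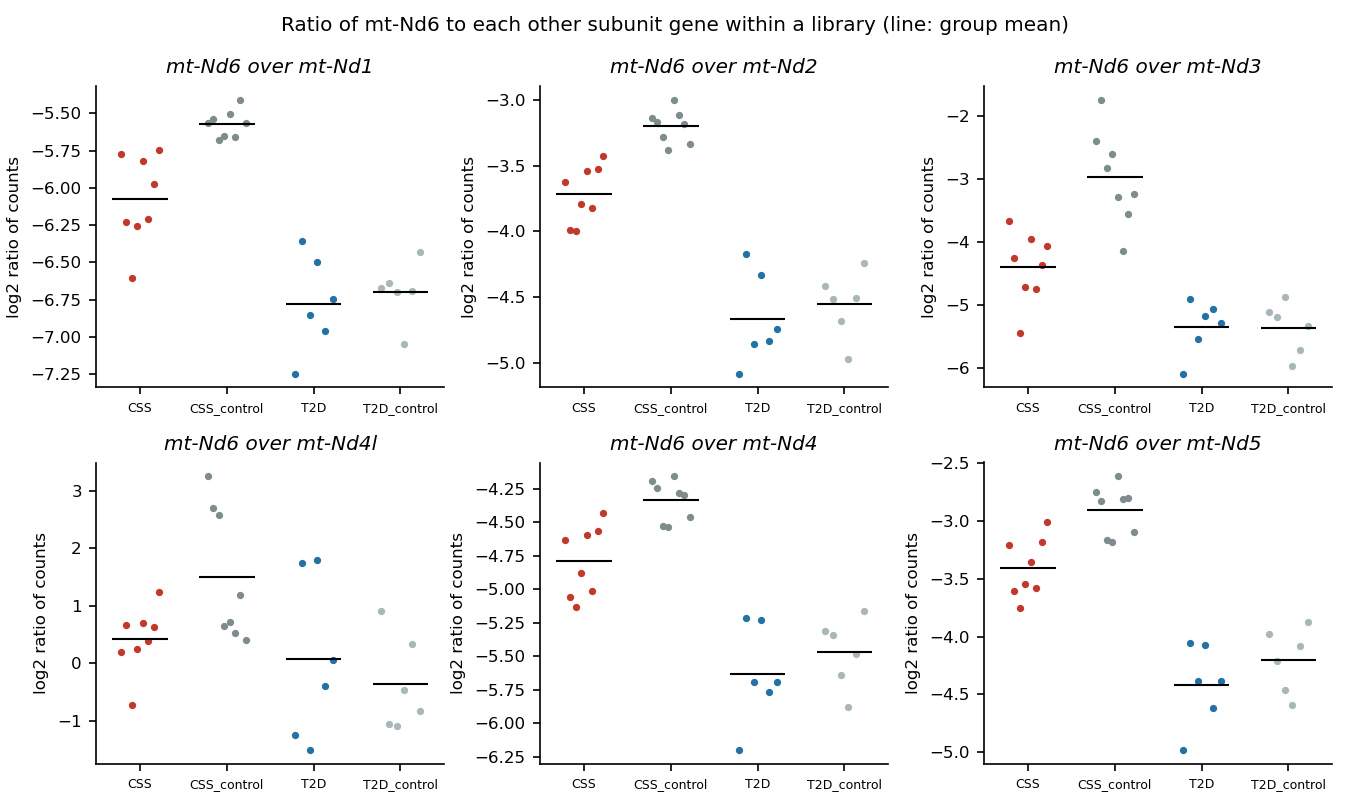
Within-library log2 ratio of mt-Nd6 counts to the counts of each other member (vertical axis, a separate scale per panel) in the 4 groups; each point is 1 mouse and the line is the group mean. CSS libraries lie apart from CSS_control libraries for mt-Nd1 and mt-Nd2, and the T2D and T2D_control libraries overlap in all 6 ratios.

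The copies in chromosome 1 bear on mt-Nd3 and mt-Nd4l directly. mt-Nd3 took 58.8% to 87.4% of the counts it shares with Gm28438 in CSS, mean 69.2 ± 9.25%, against 26.1% to 82.3% in CSS_control, mean 50.5 ± 19.0% (difference 18.6 percentage points, exact permutation p = 0.0272, adjusted over 4 tests 0.109). The sum of mt-Nd3 and Gm28438 hardly varied. It was 860.1 to 964.5 CPM in CSS and 792.8 to 984 CPM in CSS_control, and its log2 change was -0.028 ± 0.047 (adjusted p = 0.779, edgeR), where mt-Nd3 alone had 0.41. For mt-Nd4l the share was 36.5% to 100% in CSS and 11.0% to 58.9% in CSS_control (exact permutation p = 0.181).

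The sum of mt-Nd4l and Gm10222 was 28.4, 47.1 and 58.4 CPM in CSS (lowest, median and highest), against 55.1, 61.8 and 73.3 CPM in CSS_control. It fell by 0.50 on the log2 scale (SE 0.12, adjusted p = 0.0259, edgeR), where mt-Nd4l alone had no such change. Against the sums, mt-Nd6 was also lower in CSS: the log2 ratio to mt-Nd3 plus Gm28438 differed by -0.89 with no overlap (exact permutation p = 0.000155, adjusted over 8 ratios 0.00124), and that to mt-Nd4l plus Gm10222 by -0.41 (exact permutation p = 0.00249, adjusted 0.00995). The ratio of mt-Nd5 to the mt-Nd3 sum differed by -0.39, with 8 of 8 stressed mice below the control mean (exact permutation p = 0.0134, adjusted 0.0356). The ratio of mt-Nd5 to the mt-Nd4l sum differed by 0.094 and did not pass (adjusted p = 0.336, exact permutation test). With the copies added, 4 of the 7 members passed in CSS, among 680 of 15095 genes in all. The summing does not recover reads shared with Gm28439, so the value of mt-Nd4 may hold the same uncertainty, which was not tested.

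**Figure D4:**
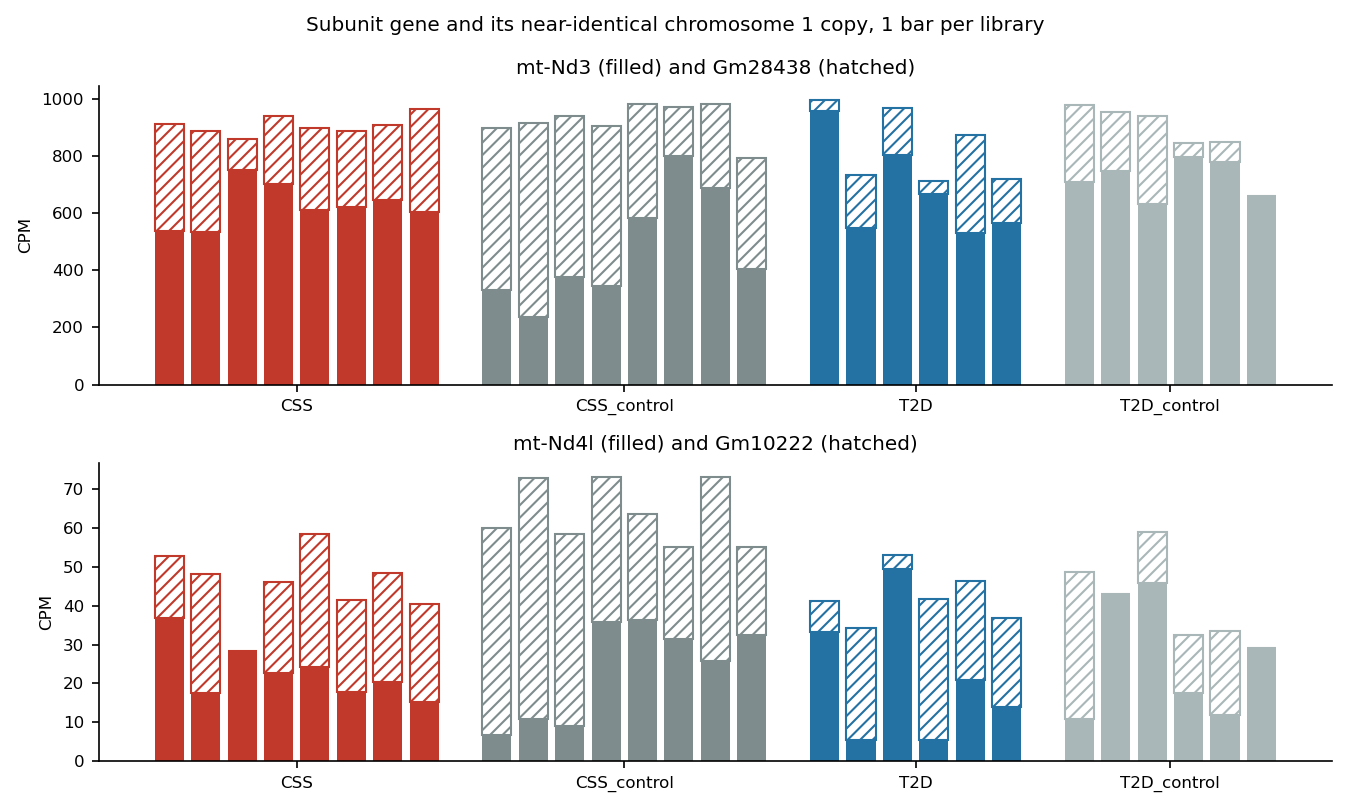
Stacked level in CPM (vertical axis from 0) of mt-Nd3 with Gm28438 and of mt-Nd4l with Gm10222, 1 bar per library, filled for the mitochondrial gene and hatched for the chromosome 1 copy. The sums for mt-Nd3 lie between 662.4 and 996.3 CPM in every library while the filled share varies from 26.1% to 100%.

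The controls of the social stress cohort were not uniform in these genes. Their titles carry a code number, whose meaning the labels do not give: CSS mice have C1 (1 mouse), C2 (1), C3 (3) and C4 (3), while 4 controls have C1, 3 have C2 and 1 has C3. Set against the 4 C1 controls alone, 6 of 7 members passed in CSS (1130 genes in all). Set against the 4 controls with C2 or C3, 0 of 7 passed (0 genes in all), with 4 members at an unadjusted p under 0.05. mt-Nd6 averaged 30.7 ± 8.44 CPM in CSS (n = 8), 61.2 ± 7.82 CPM in the C1 controls and 51.8 ± 8.89 CPM in the C2 and C3 controls (SD, n = 4 each). Its log2 change was -1.01 ± 0.19 against C1 (adjusted p = 0.00834, edgeR) and -0.75 ± 0.20 against C2 and C3 (adjusted p = 0.225, edgeR). With the code number as a factor it was -0.68 ± 0.20 (adjusted p = 0.182, edgeR), and 0 of 7 members passed, as did 2 of 15097 genes in all.

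The estimates of the heavy-strand members also moved between the sets of controls. Whether they moved more than that of mt-Nd6 was not tested. The log2 change of mt-Nd1 was -0.58 against C1 and -0.25 against C2 and C3, that of mt-Nd4 was -0.62 against C1 and -0.28 against C2 and C3, and that of mt-Nd5 was -0.61 against C1 and -0.19 against C2 and C3. mt-Nd3 was 0.94 higher against C1 (adjusted p = 0.000507, edgeR) and differed by 0.018 from C2 and C3; its mean was 627.1 CPM in CSS, 323 CPM in the C1 controls and 620 CPM in the C2 and C3 controls. The ratios of mt-Nd6 to mt-Nd1, mt-Nd2, mt-Nd4 and mt-Nd5 passed against either set. Against the C2 and C3 controls the log2 ratio of mt-Nd6 differed in CSS by -0.58 relative to mt-Nd5, by -0.54 relative to mt-Nd1, by -0.56 relative to mt-Nd2 and by -0.49 relative to mt-Nd4 (adjusted p = 0.0121 to 0.0139 over 12 tests, exact permutation tests). Against the C1 controls the same differences were -0.42, -0.47, -0.47 and -0.41 (adjusted p = 0.0139 to 0.0287, exact permutation tests). The ratios to the members with listed copies moved with the set. The ratio to mt-Nd3 differed by -2.01 against C1 and by -0.84 against C2 and C3 (adjusted p = 0.0121 and 0.0287, exact permutation tests). The ratio to mt-Nd4l differed by -1.88 against C1 and by -0.29 against C2 and C3, and did not pass against C2 and C3 (adjusted p = 0.376, exact permutation test).

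**Figure D5:**
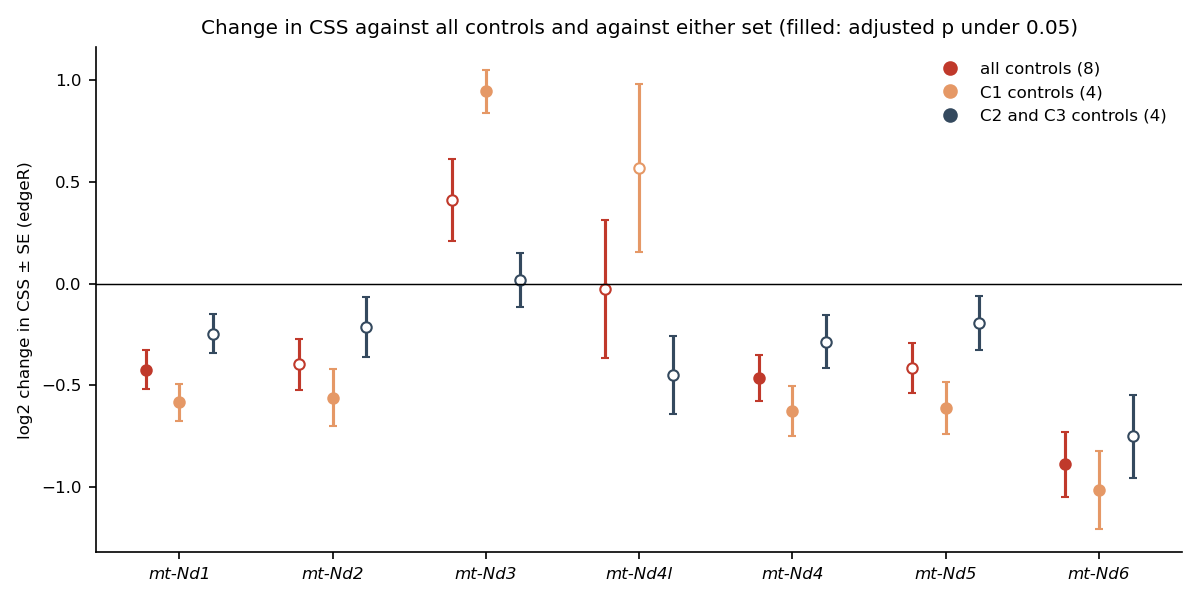
Fitted log2 change ± SE of each member in CSS (vertical axis) against all 8 controls, the 4 controls of title code C1 and the 4 of C2 and C3; filled points passed an adjusted p of 0.05. mt-Nd6 lies between -1.01 and -0.75 throughout, while mt-Nd3 lies at 0.94 against C1 and 0.018 against C2 and C3.

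Markers of other cell types also moved between CSS and CSS_control, and their part in these results was not tested. Of 8 microglia markers 5 fell, and their summed level was 160.1 to 280.3 CPM in CSS and 277 to 322.6 CPM in CSS_control. Of 6 meningeal fibroblast markers 1 rose (Col1a1), with sums of 36.2 to 123 CPM in CSS and 36.0 to 63.6 CPM in CSS_control; of 6 endothelial markers 2 rose (Mfsd2a and Slco1a4), with sums of 133.8 to 201.2 CPM in CSS and 137.3 to 170.1 CPM in CSS_control. Of 7 astrocyte markers 1 rose (Slc1a2), of 7 inhibitory neuron markers 1 fell (Sst), and 0 of 8 excitatory neuron, 0 of 7 oligodendrocyte and 0 of 5 striatal projection neuron markers passed. Of 5 red blood cell markers 0 passed, but 5 had estimates above 0 with an unadjusted p under 0.05 (median log2 change 0.82), and their sums were 130.6 to 577.1 CPM in CSS and 101.8 to 234.7 CPM in CSS_control. Of 2 choroid plexus markers tested 0 passed in CSS, with sums of 2.62 to 24.3 CPM, against 4.17 to 20.5 CPM in CSS_control. In the diabetes cohort 3 were listed, with sums of 8.14 to 368.7 CPM in T2D and 3.06 to 343.7 CPM in T2D_control. Of 8 microglia markers 8 had estimates below 0 in T2D (median log2 change -0.45). Of 5 striatal markers 5 had estimates above 0 there (median 0.53), and 0 of these passed. Their part in T2D was not tested. With the RNA integrity number as a covariate, 3 of 7 members passed in CSS, as without it, among 649 of 15097 genes in all.

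The comparison of T2D with T2D_control asks the same of metabolic stress, and 0 of 7 members passed, as did 0 of all genes (0.0%; 879 genes had an unadjusted p under 0.05, and DESeq2 called 4 genes, none a member). mt-Nd6 was at 14.1, 16.7 and 18.6 CPM in T2D (lowest, median and highest), against 12.8, 18.5 and 21.6 CPM in T2D_control. The groups overlapped, as they did for all 7 members (0.133% of all genes did not overlap), and the log2 change of mt-Nd6 was -0.13 ± 0.13 (adjusted p = 0.890, edgeR). mt-Nd1 was at 1490, 1834 and 2139 CPM in T2D and at 1418, 1867 and 2241 CPM in T2D_control, mt-Nd5 at 302.7, 336.5 and 445.6 CPM in T2D and at 240.9, 316.3 and 477.6 CPM in T2D_control, and both overlapped throughout. The log2 changes were -0.033 ± 0.13 for mt-Nd1, -0.0014 ± 0.14 for mt-Nd2, -0.098 ± 0.14 for mt-Nd3, 0.050 ± 0.14 for mt-Nd4, 0.086 ± 0.16 for mt-Nd5 and -0.30 ± 0.58 for mt-Nd4l (adjusted p = 0.929 to 0.9997, edgeR), and 0 of the 7 had an unadjusted p under 0.05.

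Of the 21 ratios between members 0 passed in T2D. The log2 ratio of mt-Nd6 to mt-Nd5 averaged -4.41 ± 0.35 in T2D and -4.20 ± 0.28 in T2D_control (SD, n = 6 each), a difference of -0.21 (exact permutation p = 0.279, adjusted 0.529). There were 183.7 to 361 heavy-strand counts per mt-Nd6 count in T2D and 198 to 310 in T2D_control. mt-Nd3 took 60.8% to 96.1% of its sum with Gm28438 in T2D and 67.0% to 100% in T2D_control. The sum of mt-Nd4l and Gm10222 was 34.3 to 53.1 CPM in T2D and 29.1 to 59.1 CPM in T2D_control.

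The change in CSS was then set against the change in T2D in a fit of all 28 libraries. None of the 7 members differed after adjustment (12 of 14888 genes did, 0.0806%), and 4 had an unadjusted p under 0.05; DESeq2 also called 0 of 7. For mt-Nd6 the change in CSS minus that in T2D was -0.76 ± 0.23 on the log2 scale (unadjusted p = 0.00211, adjusted 0.160, edgeR), and for mt-Nd4, mt-Nd5, mt-Nd2 and mt-Nd1 it was -0.52 ± 0.19, -0.51 ± 0.21, -0.40 ± 0.20 and -0.40 ± 0.16 (adjusted p = 0.257 to 0.409, edgeR). The difference in the ratio of mt-Nd6 to mt-Nd5 was -0.29, with changes of -0.50 in CSS and -0.21 in T2D (permutation p = 0.264). Of 6 such ratios of mt-Nd6, that to mt-Nd3 passed, with changes of -1.43 in CSS and 0.022 in T2D and a difference of -1.45 (permutation p = 0.00437, adjusted 0.0262), and the other ratios had adjusted p = 0.127 to 0.264. A call in CSS beside none in T2D therefore does not show that the cohorts differ in the other ratios.

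The cohorts themselves differed in the listed level of mt-Nd6, the only light-strand member. mt-Nd6 was at 17.3 to 71.3 CPM in the 16 libraries of the social stress cohort and at 12.8 to 21.6 CPM in the 12 of the diabetes cohort. The log2 ratio of mt-Nd6 to mt-Nd5 was -3.75 to -2.61 in CSS and CSS_control and -4.98 to -3.87 in T2D and T2D_control, with no overlap between the cohorts. mt-Nd5 itself spanned 233 to 511.4 CPM in CSS and CSS_control and 240.9 to 477.6 CPM in T2D and T2D_control. Other members also differed in mean level between CSS_control and T2D_control: mt-Nd1 was at 2680 and 1839 CPM, and mt-Nd4 at 1138 and 788.5 CPM. The means of mt-Nd3 (471.5 and 721.7 CPM) and mt-Nd4l (23.5 and 26.4 CPM) went the other way. How many of all genes separate the cohorts was not counted. Age, cohort, the strand setting of the counts and any other difference in handling cannot be told apart here, and no test was made.

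Nuclear genes of complex I, which supply its other subunits, were compared in CSS by counts and medians. Of all genes 4.52% passed in CSS, with a median log2 change of 0.0054, and 0 passed in T2D. Of the 7 nuclear core subunits 0 passed (median -0.064). Of 29 accessory subunits 4 fell and 0 rose (median -0.023): Ndufa10 at -0.34 ± 0.063, Ndufa12 at -0.31 ± 0.075, Ndufa13 at -0.20 ± 0.053 and Ndufa5 at -0.33 ± 0.091 (adjusted p = 0.00999 to 0.0447, edgeR). Of 15 assembly factors 1 fell, Ndufaf7, a methyltransferase of complex I assembly, at -0.22 ± 0.059 (adjusted p = 0.0394, edgeR; list median -0.034). In T2D 0 of these genes passed.

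Calls among genes that make and keep mitochondrial RNA stand beside the 4.52% of all genes that passed in CSS and the 0 that passed in T2D. Of 12 genes of mitochondrial transcription 0 passed in CSS (median -0.079), the smallest p belonging to Mterf2 at -0.40 ± 0.12, Mterf4 at -0.21 ± 0.067 and Top1mt at -0.27 ± 0.091 (adjusted p = 0.0724 to 0.0964, edgeR). The polymerase gene Polrmt was at -0.045 ± 0.16 and its partners Tfam and Tfb2m at -0.13 ± 0.096 and -0.11 ± 0.095, none of which passed; these 3 were singled out for their role after their values were seen. Of 22 genes of mitochondrial RNA processing and stability 1 fell, Hsd17b10, a subunit of mitochondrial RNase P, at -0.24 ± 0.062 (adjusted p = 0.0350, edgeR; median -0.018). Of 13 genes of mitochondrial DNA maintenance 1 fell, Ssbp1, which coats unwound mitochondrial DNA, at -0.30 ± 0.069 (adjusted p = 0.0228, edgeR; median -0.065), and of 10 biogenesis regulators 0 passed (median 0.052). In T2D 0 of these genes passed.

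The neighbours of the members in mitochondrial DNA were read from the heavy strand too. Of the 6 other protein genes 3 fell in CSS: mt-Atp8 at -0.51 ± 0.10, mt-Cytb at -0.43 ± 0.093 and mt-Co1 at -0.20 ± 0.051 (adjusted p = 0.0126, 0.0193 and 0.0318, edgeR). mt-Atp6, mt-Co3 and mt-Co2 had estimates above 0 that did not pass. Neither of the 2 ribosomal RNA genes passed, with mt-Rnr1 at -0.22 ± 0.18 and mt-Rnr2 at -0.12 ± 0.11. Of the 6 chromosome 1 copies tested 2 fell, Gm10925 at -0.51 ± 0.11 and Gm29216 at -0.50 ± 0.11 (adjusted p = 0.0190 and 0.0212, edgeR). Counts of these copies may hold reads from mitochondrial genes, so the listed changes of both are uncertain. The division of reads was examined only for mt-Nd3 and mt-Nd4l.

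The genes outside mitochondrial DNA whose pattern was most like that of mt-Nd6 were Gm10925, Gtf3c6 and Wnk1, with an SD of 0.207, 0.236 and 0.237 for the within-library log2 ratio to mt-Nd6 after subtracting group means, over 28 libraries and 10934 genes. The SD of the log2 level of mt-Nd6 itself was 0.303. For mt-Nd5 they were Gm10925, Ncl and Gm28661, with an SD of 0.137, 0.170 and 0.188 beside 0.279 for mt-Nd5 itself. Within mitochondrial DNA the closest to mt-Nd5 was mt-Nd4, with an SD of 0.078. The closest there to mt-Nd6 were mt-Atp8, mt-Cytb and mt-Nd2, with an SD of 0.215, 0.225 and 0.233, below those of Gtf3c6 and Wnk1. For mt-Nd6 and its overlapping neighbour mt-Nd5 the SD was 0.269. Gm10925 and Gm28661 are themselves chromosome 1 copies of mitochondrial sequence.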

How the data were processed

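Total RNA libraries of 28 mice were analysed from 2 deposited tables, 1 per cohort. Per the submitters' processing notes, the authors used Salmon 1.1.0 and mm10; the deposited values are estimated counts per gene, not whole numbers, and they were rounded for fitting. The setting for strand, and the summing of transcripts to genes, are not given in the sources read here. The tables hold 0 columns of other samples. Groups came from the treatment label. edgeR 4.0.16 (filterByExpr, TMM scaling, robust quasi-likelihood) was fitted to each whole table and, for the difference between cohorts, to all 28 libraries, taking an adjusted p (Benjamini-Hochberg, whole table) under 0.05 as passing; it was tested on simulated data. CPM used unrounded counts and the listed total. Ratios used two-sided exact permutation tests, or 100000 permutations for the cohort difference. DESeq2 1.42.0 was an alternative. Genes, coordinates, sequences and copies came from GENCODE M21 (GRCm38), with BLAST 2.17.0 (95% identity, 100 bases). All 7 members are named; of other lists, those that passed where 5 or fewer did, otherwise at most the 3 of smallest p; and the 3 genes nearest mt-Nd6 and mt-Nd5 whose log2 CPM averaged 3 or more (0.5 CPM added). Members and lists were chosen with earlier results of these data known; the ratios to sums with copies, the cohort difference of ratios and the ratios by title code were chosen after seeing the data.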

Additional observations from a re-analysis of the deposited data

Results flagged for a closer look

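The change in the log2 ratio of mt-Nd6 to mt-Nd3 differed between the cohorts: it was -1.43 in CSS and 0.022 in T2D, a difference of -1.45 (permutation p = 0.00437 from 100000 permutations within each cohort, adjusted over 6 ratios 0.0262). The change in CSS was -2.01 against the 4 controls of title code C1 and -0.84 against the 4 of C2 and C3, and the cohort difference was not tested within either set. In CSS 8 of 8 mice lay below the control mean of this ratio, and in T2D 2 of 6 did. The share of reads given to mt-Nd3 rather than Gm28438 was 69.2% in CSS and 50.5% in CSS_control (exact permutation p = 0.0272, adjusted over 4 tests 0.109). It was 81.0% in T2D and 84.0% in T2D_control. Against the sum with Gm28438 the changes of mt-Nd6 were -0.89 in CSS and -0.031 in T2D. The cohort difference was tested neither for the share nor for the ratio to the sum. No library stood apart from its group in any of the 60 groups of levels, ratios and shares examined for outlying libraries, where chance alone gives about 5%.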

How the results depend on the processing

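In CSS the 3 members called became 5 with DESeq2, 6 against the C1 controls, 0 against the C2 and C3 controls and 0 with the title code as a factor, and 2 to 5 with 1 library left out (5 without CSS replicate 1 or CSS_control replicate 6, 2 without CSS replicate 6 or any C1 control). The cause of these shifts was not tested, and either set holds fewer controls than the main fit. Other scalings, filters, the RNA integrity covariate and the copies left 3 or 4; in T2D and in the cohort difference the count stayed at 0 in every setting. Judged by an unadjusted exact permutation p under 0.05, the ratio of mt-Nd6 to mt-Nd5 kept its side of the threshold in each setting tried. It was at -0.56 to -0.45 in CSS and -0.29 to -0.10 in T2D with 1 library left out. The title code as a factor was not applied to this ratio. Estimates that changed sign were all uncalled ones: in CSS mt-Nd3 (-0.028 with its copy) and mt-Nd4l (0.57 against C1, 0.17 with the title code, 0.096 with the replicate block, -0.17 to 0.090 with 1 library left out); in T2D mt-Nd1 (0.040 in mice of 30 weeks; -0.095 to 0.028), mt-Nd2 (0.0081 at a mean CPM of at least 5, 0.0079 with the replicate block, 0.057 in mice of 30 weeks; -0.071 to 0.094), mt-Nd4 (-0.034 with RNA integrity; -0.037 to 0.16), mt-Nd5 (-0.035 with RNA integrity; -0.00095 to 0.22) and mt-Nd4l (0.036 with its copy). The labels do not state whether the replicate numbers pair the mice. Correlations of same-numbered libraries were -0.16 to 0.33 in CSS and -0.015 to 0.13 in T2D, which cannot settle it without mismatched pairs beside them. With the replicate block 4 members passed in CSS (478 genes in all) and 0 in T2D. The ratio of mt-Nd6 to mt-Nd5 then stayed at -0.50 in CSS and -0.21 in T2D (exact sign-flip permutation p = 0.0156 and 0.469). Genes called in all were 1280 with DESeq2 and 683 with edgeR. The raw counts were lowest for mt-Nd4l (78 to 1078) and mt-Nd6 (216 to 2672).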
